A study of Homo sapiens with 42 samples.

Results

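A375 melanoma cells, a human line that carries oncogenic BRAF and wild-type p53, were used to compare p53 siRNA with a control siRNA during treatment with daunorubicin. Of the 42 arrays of the study, 3 carried p53 siRNA with 100 nM daunorubicin and 3 carried GL2 siRNA with 100 nM daunorubicin, and they were chosen by their titles alone. GL2 siRNA is directed against firefly luciferase and commonly serves as a control without a human target. All cells had been transfected for 48 hours and then treated for 26 hours, with 27000 cells in a culture. Daunorubicin, an anthracycline, traps topoisomerase II on DNA and so causes breaks. Further comparisons used p53 siRNA and GL2 siRNA with 5 uM Nutlin, which keeps MDM2 from binding p53, and p53 siRNA and GL2 siRNA with 0.065% DMSO, the vehicle, with 3 arrays in each group. DMSO was arrayed in a first and a second set for both siRNAs, the labels tie neither to a drug, and the first set is used here. Whether replicates came from separate cultures is not stated in the labels, and p-values cover only the spread among these arrays, which may be technical. An siRNA lowers a transcript without removing it, and A375 is 1 line.

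p53 is a transcription factor that is kept low by the ubiquitin ligase MDM2 and accumulates after DNA damage. Among the genes it switches on is CDKN1A, which encodes p21, an inhibitor of cyclin-dependent kinases. Through p21, RB-family proteins stay bound to E2F factors or in the DREAM complex at the promoters of replication and mitosis genes and keep these genes silent. Replication genes are typically bound through E2F sites and mitosis genes through the cell cycle homology region. The comparison therefore covers both genes that p53 switches on and genes that are silenced downstream of it. The effect of the siRNA is shown here through p53 targets.

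One p53 siRNA array stood apart in RNA quality. On replicate 1 of p53 siRNA with daunorubicin the ratio of 5' to 3' signal was 0.0118 for actin and 0.0509 for GAPDH, against 0.649 to 0.945 and 0.989 to 1.19 on the other 41 arrays. Its ratios of middle to 3' signal were 0.418 for actin and 0.307 for GAPDH, against 0.751 to 0.98 and 0.782 to 0.899. For the median gene it differed from the other arrays of its group by 0.587 on the log2 scale, and no other array of the study differed by more than 0.382. Of the genes called higher in p53 siRNA cells, 87.6% had their highest p53 siRNA value on this array. Of those called lower, 52.6% had their lowest p53 siRNA value on it. Main counts and many changes are therefore also given without it, and the other values rest on all arrays. The part of this array in a value that moves was not tested. Outside the daunorubicin groups, 2 arrays of cells treated with MLN4924 went against their labels and enter only the shared spread of the fit. On the log2 scale relative to the array's median gene, BRCA1 was at 2.12 on the library labelled BRCA1 siRNA replicate 3, against -1.13 and -0.77 on the others of that label, and at -1.35 on the library labelled GL2 siRNA replicate 3, against 1.90 and 2.18 on the others. Without both and without p53 replicate 1, 3477 genes were called between p53 and GL2 siRNA under daunorubicin.

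**Figure D1:**
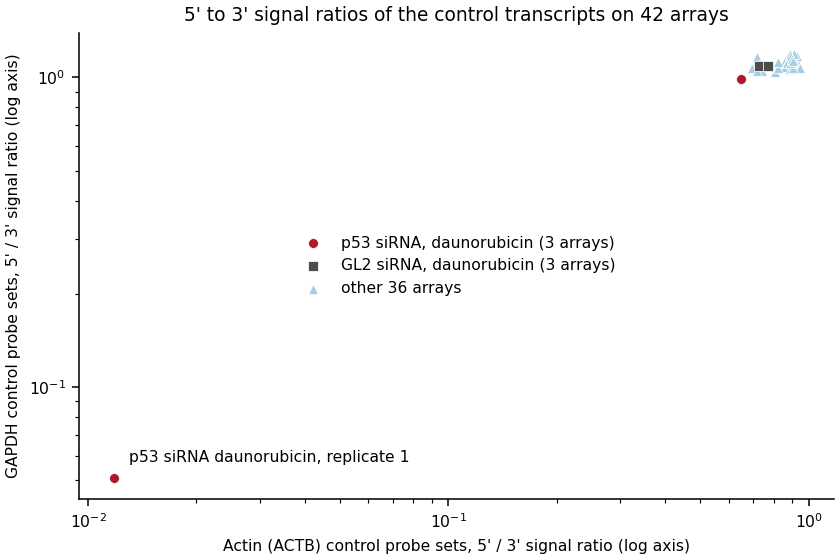
Ratio of 5' to 3' signal for the actin control probe sets (horizontal, log axis) and the GAPDH control probe sets (vertical, log axis) on each of the 42 arrays. The p53 siRNA daunorubicin array labelled replicate 1 lies at 0.0118 and 0.0509, and the other 41 arrays lie between 0.649 and 0.945 and between 0.989 and 1.19.

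Levels below are log2 signals relative to the median gene of the same array, and a change is the p53 siRNA level less the GL2 siRNA level. Genes count as called where limma's Benjamini-Hochberg adjusted p over all 19775 genes was under 0.05 and the change at least 1.5-fold, and only called genes are said to be higher or lower. Under daunorubicin 2396 genes were called higher in p53 siRNA cells (12.1%) and 1796 were called lower (9.08%). Without p53 replicate 1 these were 1691 (8.55%) and 1708 (8.64%). The balance also turned with the scaling, with 2083 higher and 2111 lower at the deposited scaling and 2151 and 2288 with quantile normalization, and with array weights it was 1969 and 2382. Calls in the same direction in both fits numbered 1595 higher and 1229 lower, and 0 genes were called in opposite directions. At least 4-fold changes numbered 347 higher and 160 lower, and the p53 siRNA and GL2 siRNA arrays did not overlap for 2305 of the genes called higher and 1510 of those called lower. Over all 19775 genes, called or not, the arrays lay apart with p53 siRNA higher for 3561 and lower for 2794. A fit of the 6 daunorubicin arrays alone, without the spread of the other groups, called 726 genes higher and 321 lower.

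The cells showed part of the melanocyte program. Of the 15 melanocyte markers measured, the mean signal of 5 was below 31.9, the median of all values, in p53 siRNA cells and of 5 in GL2 siRNA cells. SOX10, a lineage transcription factor, had signals of 710 to 851 in p53 siRNA cells and 1440 to 1620 in GL2 siRNA cells, while the pigment cell antigen MLANA stayed at 3.9 to 23.6 and 18.5 to 41.2. The summed signal of the melanocyte markers was 2626 to 3081 in p53 siRNA cells and 3430 to 3612 in GL2 siRNA cells. Its members did not move together, with 3 called lower and 1 higher. Besides SOX10, S100B was at 121 to 177 in p53 siRNA cells and 364 to 460 in GL2 siRNA cells. RAB27A went the other way, at 266 to 352 and 101 to 152, as did PAX3, at 374 to 509 and 296 to 325. MITF overlapped, at 340 to 564 and 370 to 428. Sums for leukocyte markers were 651 to 739 and 664 to 934, most of it LYZ at 435 to 526 and 458 to 606. For fibroblast markers they were 610 to 708 and 629 to 719. Those for epithelial markers were 2365 to 2926 and 2739 to 2850, most of it KRT18 at 2154 to 2516 and 2215 to 2318. Of these 29 genes, 2 were called lower, KRT8 and COL3A1, and 1 higher, POSTN, and their part in the other results was not tested. Without p53 replicate 1, KRT8 was called lower and CLDN7 higher, and no fibroblast or leukocyte marker was called. In bulk RNA, fewer cells of a kind and less RNA per cell cannot be told apart.

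Promoters of 6 genes called higher are shown because they hold words of motifs through which mitosis and replication genes are known to be silenced. They are RefSeq sequences of GRCh38.p14, from 250 bases before to 50 after the gene's start, written 5' to 3' on the gene's strand. Capitals mark words of the cell cycle homology region (TTTGAA or TTCGAA on either strand) in CDK1, ANLN and TOP2A. In the others they mark words of the E2F site (TTTGGCGC, TTTCCCGC, TTTGCCGC or TTTCGCGC on either strand). The words were matched by letters alone, and whether a marked stretch is a site bound in cells was not tested. In CDK1 the marked word lies far from the start, at -161 to -155. The CDK1 promoter also holds TTTCGCGC, left in lower case. CDK1 encodes the kinase that drives mitosis, ANLN a scaffold of the cleavage furrow and TOP2A the topoisomerase that daunorubicin poisons. GINS1 and GINS2 encode subunits of the replicative helicase and UHRF1 a factor that maintains DNA methylation at replication.
CDK1, chr10:60778081-60778380 (+): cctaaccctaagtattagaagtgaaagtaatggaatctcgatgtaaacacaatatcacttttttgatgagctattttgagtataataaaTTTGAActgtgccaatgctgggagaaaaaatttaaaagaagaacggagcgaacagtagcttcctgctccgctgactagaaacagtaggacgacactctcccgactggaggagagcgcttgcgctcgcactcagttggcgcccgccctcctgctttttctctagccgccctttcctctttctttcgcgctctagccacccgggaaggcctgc
ANLN, chr7:36389612-36389911 (+): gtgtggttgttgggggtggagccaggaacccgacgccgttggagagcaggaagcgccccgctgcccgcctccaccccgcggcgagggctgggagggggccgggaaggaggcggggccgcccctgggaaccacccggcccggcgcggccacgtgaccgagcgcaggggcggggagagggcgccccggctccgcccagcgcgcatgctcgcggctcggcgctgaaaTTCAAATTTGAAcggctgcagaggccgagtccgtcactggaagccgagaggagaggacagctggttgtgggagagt
TOP2A, chr17:40417847-40418146 (-): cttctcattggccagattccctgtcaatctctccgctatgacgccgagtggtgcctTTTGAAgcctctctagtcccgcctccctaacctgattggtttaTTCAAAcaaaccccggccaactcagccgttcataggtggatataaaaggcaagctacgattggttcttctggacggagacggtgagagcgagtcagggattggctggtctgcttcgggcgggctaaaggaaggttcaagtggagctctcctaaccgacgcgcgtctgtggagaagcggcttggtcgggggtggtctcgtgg
GINS1, chr20:25407423-25407722 (+): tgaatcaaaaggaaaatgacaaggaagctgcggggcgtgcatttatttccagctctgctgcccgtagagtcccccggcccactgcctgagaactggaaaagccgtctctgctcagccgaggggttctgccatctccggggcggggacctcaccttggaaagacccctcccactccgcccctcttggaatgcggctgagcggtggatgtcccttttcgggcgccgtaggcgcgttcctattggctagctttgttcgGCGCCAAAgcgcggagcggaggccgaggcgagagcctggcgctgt
GINS2, chr16:85688905-85689204 (-): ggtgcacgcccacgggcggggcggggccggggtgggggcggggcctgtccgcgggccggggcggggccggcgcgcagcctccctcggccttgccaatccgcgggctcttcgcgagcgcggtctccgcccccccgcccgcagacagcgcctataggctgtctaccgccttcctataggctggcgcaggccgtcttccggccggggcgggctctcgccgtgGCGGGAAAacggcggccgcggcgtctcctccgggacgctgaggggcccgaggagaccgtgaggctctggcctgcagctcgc
UHRF1, chr19:4909251-4909550 (+): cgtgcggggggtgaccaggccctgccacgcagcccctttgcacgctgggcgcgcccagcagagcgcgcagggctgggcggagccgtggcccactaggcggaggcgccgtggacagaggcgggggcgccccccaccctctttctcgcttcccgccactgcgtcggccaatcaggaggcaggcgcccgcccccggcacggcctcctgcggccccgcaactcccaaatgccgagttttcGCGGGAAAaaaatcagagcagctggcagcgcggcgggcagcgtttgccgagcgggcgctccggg

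The cell cycle homology region was found in 26 of the 37 mitosis genes whose promoter was in the table (70.3%), and in 2050 of 15382 promoters of all measured genes (13.3%). Among the DNA replication genes it was found in 3 of 40 (7.5%). The E2F site had the opposite pattern, with 19 of 40 DNA replication genes (47.5%) and 3 of 37 mitosis genes (8.11%), against 4.36% of all. CCAAT, searched on both strands and free to share letters with the other motifs, was in 78.4% of mitosis promoters, 20 of 40 replication promoters and 36.1% of all promoters. Over every gene called higher the shares were 16.2% for the cell cycle homology region and 8.87% for the E2F site, and over every gene called lower 9.72% and 3.06%. A pair of p53 half-sites, each of 10 bases, at most 13 bases apart, with the core C and G of each kept and at most 2 mismatches in all, was in 1 of 51 promoters of p53 targets (1.96%) and in 2.62% of all. These shares describe letters in a short window and were not tested.

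**Figure D2:**
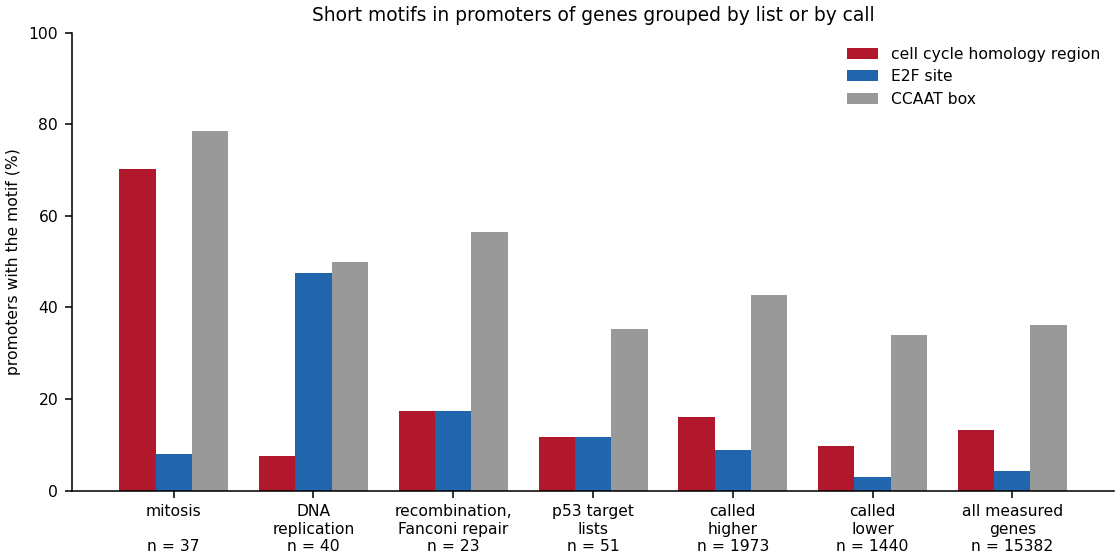
Share of promoters (vertical, percent) that hold the cell cycle homology region, the E2F site or the CCAAT box, for genes grouped by list or by call, with the number of promoters under each group. The cell cycle homology region is at 70.3% in mitosis genes and the E2F site at 47.5% in DNA replication genes, against 13.3% and 4.36% of all promoters.

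p53 feedback genes and modifiers were mostly lower in p53 siRNA cells. Of the 11 measured, 7 were called lower and 1 higher, with a median change of -0.85, beside a median of -0.02 over all genes; without p53 replicate 1 the counts were again 7 and 1. MDM2, the ligase that removes p53, had levels of 4.20, 3.51 and 4.24 in p53 siRNA cells, against 6.03, 5.86 and 5.61 in GL2 siRNA cells. The groups lay clear of each other, with a change of -1.85 ± 0.16 and an adjusted p of 7.7e-11 in limma. The error after a change or a difference is the SE of the fit throughout. It pools the spread of all 14 groups and is too small where the p53 siRNA daunorubicin arrays spread more than the others. TP53INP1, a p53 cofactor, was at 1.08, 0.72 and 0.85, against 3.67, 3.57 and 3.45 in GL2 siRNA cells, a change of -2.68 ± 0.21 on its brightest probe set and of -1.26 with its 3 probe sets averaged. ZMAT3, an RNA-binding p53 target, changed by -2.28, PPM1D, a phosphatase that turns damage signals off, by -0.61 and CCNG1, a cyclin of the same feedback, by -0.85. WRAP53, which overlaps the p53 gene in antisense, was called higher, at 2.42, 2.54 and 2.51 against 1.53, 1.42 and 1.62 in GL2 siRNA cells. MDM4, an inhibitor of p53, was not called, at 3.33, 2.30 and 2.84 against 3.19, 3.43 and 2.65 in GL2 siRNA cells.

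Among p53 targets of growth arrest 8 of 12 were called lower and 1 higher, with a median of -0.77, and 7 and 1 without p53 replicate 1. CDKN1A was at 3.98, 3.82 and 3.99 in p53 siRNA cells, against 5.89, 5.95 and 5.68 in GL2 siRNA cells. The change of -1.91 ± 0.17 had an adjusted p of 2.1e-10 in limma, and all p53 siRNA arrays lay below all GL2 siRNA arrays. SESN1, a stress-induced inhibitor of TORC1 signalling, changed by -1.93 ± 0.13, PLK2 by -1.23 and the cyclin CCNG2 by -1.79. GADD45A, a stress sensor that inhibits CDK1, was not called, at 5.64, 5.32 and 5.00 against 4.85, 4.82 and 4.67. E2F7, a repressor of E2F targets, was the member called higher, at 5.35, 4.73 and 4.38 in p53 siRNA cells, against 3.48, 3.34 and 3.07 in GL2 siRNA cells. It belongs to the p53 targets and also to the E2F-regulated genes of the cell cycle.

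The p53 targets of apoptosis and death receptors were more mixed, with 5 of 15 called lower and 1 higher, with and without p53 replicate 1, and a median of -0.32, which was -0.52 without it. TP53I3, an oxidoreductase of the oxidative stress response, was at 2.87, 3.23 and 3.36 in p53 siRNA cells, against 5.60, 5.27 and 5.19 in GL2 siRNA cells, with a change of -2.20 ± 0.12 and an adjusted p of 5.7e-15 in limma. BAX, which opens the outer mitochondrial membrane, was at -1.02, 1.26 and 2.24, against 4.22, 4.17 and 3.92 in GL2 siRNA cells. Its change of -3.28 ± 0.40 was -2.35 without p53 replicate 1, which had the lowest value of its group. The SD of BAX was 1.67 over the p53 siRNA arrays and 0.16 over the GL2 siRNA arrays, so the pooled SE understates its error. The death receptor FAS changed by -1.12 and TNFRSF10A, a receptor for the ligand TRAIL, by -0.70. TNFRSF10B, the other TRAIL receptor that signals death, was not called, at 4.60, 3.78 and 3.82 against 4.13, 4.13 and 3.92. PMAIP1, the BH3-only protein NOXA, was called higher, at 4.23, 4.13 and 3.75 in p53 siRNA cells, against 3.21, 3.06 and 3.07 in GL2 siRNA cells.

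Of the 6 p53 targets of DNA repair 4 were called lower and 2 higher, and 4 and 1 without p53 replicate 1. DDB2, which recognises ultraviolet lesions, was at 2.88, 2.66 and 2.83 in p53 siRNA cells, against 4.38, 4.43 and 4.01 in GL2 siRNA cells, a change of -1.48 ± 0.15. XPC, of the same repair pathway, changed by -0.82, the p53-inducible ribonucleotide reductase subunit RRM2B by -1.17 and the translesion polymerase POLH by -0.95. FANCC, of the Fanconi core complex, was called higher with 1.35, and REV3L, a translesion polymerase subunit, with 0.79, which was 0.37 and not called without p53 replicate 1.

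Targets of metabolism, secretion and autophagy had the widest range of the 5 p53 target lists, from -3.01 to 2.07, with 13 of 19 called lower and 1 higher, and 11 and 1 without p53 replicate 1. CYFIP2, which binds regulators of actin and translation, was at 0.23, -0.26 and -0.08 in p53 siRNA cells, against 3.10, 3.05 and 2.76 in GL2 siRNA cells. GDF15, a secreted stress cytokine, was at 1.70, 2.5 and 3.0, against 5.02, 4.78 and 4.55 in GL2 siRNA cells, a change of -2.38 ± 0.25; of its 3 probe sets, 2 were lower and 1 higher. The groups of both genes lay apart. The glycolysis regulator TIGAR changed by -0.94, the iron-sulfur scaffold ISCU by -0.71 and the ceramidase ACER2 by -1.24. KITLG, the ligand of the KIT receptor of melanocytes, went the other way, at 2.82, 1.81 and 1.89 in p53 siRNA cells, against 0.28, 0.04 and 0.01 in GL2 siRNA cells, with 3 of its 4 probe sets higher. Over all 63 p53 targets measured, 37 were called lower, beside 9.08% of all genes, and 6 higher, beside 12.1%, and 34 and 5 without p53 replicate 1. In the fit of the 6 arrays alone 15 were called lower, with 1 of the apoptosis list among them, and 4 higher. BAX, FAS, XPC, RRM2B, PLK2 and PMAIP1 were among those not called in that fit.

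**Figure D3:**
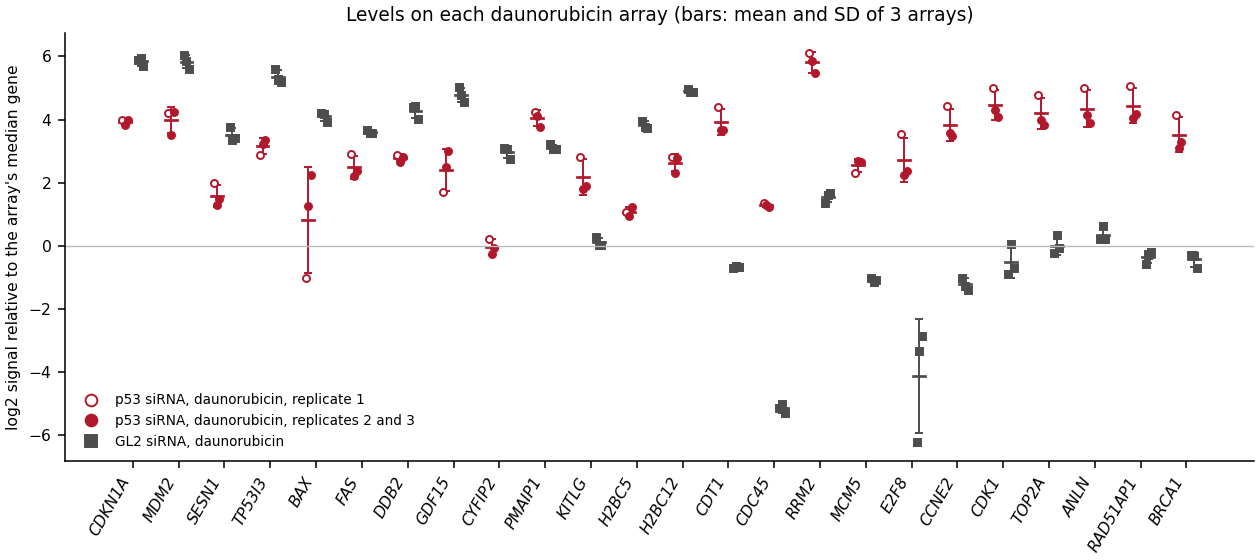
Levels of 24 genes on each daunorubicin array (vertical, log2 signal relative to the array's median gene), with p53 siRNA on the left of each pair and GL2 siRNA on the right, and bars for the mean and SD of 3 arrays. The open circle is p53 siRNA replicate 1, which lies far below the other p53 siRNA arrays for BAX; for CDKN1A and MDM2 all 3 p53 siRNA arrays lie below all GL2 siRNA arrays, and for CDC45 and CDK1 all 3 lie above.

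The DNA replication genes were higher almost as a whole. Of the 46 measured, 45 were called higher and 0 lower, beside 12.1% of all genes called higher, with a median of 2.60, and without p53 replicate 1 the counts were again 45 and 0. PCNA, the sliding clamp, which is also a p53 target, was the exception, at 6.07, 5.55 and 5.38 in p53 siRNA cells, against 5.71, 5.63 and 5.52 in GL2 siRNA cells.

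Licensing factors were among the large changes. CDT1, which loads the helicase at origins, was at 4.40, 3.68 and 3.68 in p53 siRNA cells, against -0.71, -0.64 and -0.66 in GL2 siRNA cells, a change of 4.59 ± 0.29. Its partner CDC6 changed by 4.17, the origin recognition subunits ORC1 and ORC6 by 3.09 and 4.10, and geminin (GMNN), the CDT1 inhibitor, by 2.65. All 6 helicase subunits MCM2 to MCM7 were called higher, from 2.33 for MCM4 to 3.63 for MCM5. MCM5 was at 2.31, 2.69 and 2.66, against -1.03, -1.13 and -1.08 in GL2 siRNA cells, with an adjusted p of 2.7e-16 in limma.

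Factors that activate the helicase were also called higher. CDC45 was at 1.37, 1.29 and 1.22 in p53 siRNA cells, against -5.13, -5.02 and -5.28 in GL2 siRNA cells. GINS2, whose promoter is printed above, was at 3.43, 2.78 and 2.84, against -4.10, -2.11 and -3.77. The GL2 siRNA signals of both lay below 31.9, so that changes of 6.43 and 6.34 rest on dim signals. With a pseudocount of 16 they were 3.48 and 4.68, and with the 3 GINS2 probe sets averaged, 1 of which was lower, GINS2 changed by 3.26. GINS1 changed by 3.97 and MCM10 by 4.70. Of the enzymes that make nucleotides, RRM2, the regulated subunit of ribonucleotide reductase, was at 6.11, 5.87 and 5.46, against 1.37, 1.61 and 1.66 in GL2 siRNA cells, while TYMS changed by 1.0. TK1 was at 0.55, 2.94 and 3.31, against 0.87, 0.89 and 0.77, so that p53 replicate 1 lay below the GL2 siRNA arrays and the other p53 siRNA arrays above them, and its change of 1.42 was 2.28 without that array. Polymerase, clamp loader and chromatin assembly genes lay between 0.93 for POLD1 and 4.53 for CHAF1B, and UHRF1 changed by 4.16. SLBP, which binds the stem loop of histone mRNAs, changed by 1.92.

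Of the 18 regulators around E2F, MYB and FOXM1, 13 were called higher and 1 lower, and 11 and 0 without p53 replicate 1. E2F8, a repressor of the E2F family, was at 3.53, 2.25 and 2.37 in p53 siRNA cells, against -6.20, -3.33 and -2.87 in GL2 siRNA cells, where its mean signal of 6.53 was dim. E2F1 changed by 4.02, also from a dim signal, MYBL2 by 4.06, FOXM1 by 3.46 and the DREAM subunits LIN9, LIN54 and RBL1 by 2.60, 1.70 and 2.28. Cyclin E2 (CCNE2) was at 4.42, 3.56 and 3.49, against -1.02, -1.26 and -1.39 in GL2 siRNA cells, while CCNE1 changed by 0.67, and by -0.24 with its probe sets averaged. RB1, CDK2, CDK4 and CCND3 were not called. CCND1, a cyclin that acts upstream of RB, was called lower with -0.69, a call that was lost without p53 replicate 1 (-0.57).

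Mitosis genes were higher too. Of 42 measured, 41 were called higher and 0 lower, with a median of 3.26, and 40 and 0 without p53 replicate 1. CDK1 was at 5.00, 4.29 and 4.08 in p53 siRNA cells, against -0.89, 0.07 and -0.71 in GL2 siRNA cells, a change of 4.96 ± 0.23 with an adjusted p of 1.8e-16 in limma. TOP2A was at 4.76, 4.0 and 3.82, against -0.24, 0.34 and -0.07 in GL2 siRNA cells, and ANLN at 5.00, 4.14 and 3.90, against 0.22, 0.62 and 0.21. None of these groups overlapped. The cyclins CCNA2, CCNB1 and CCNB2 changed by 3.27, 2.78 and 3.40, the checkpoint kinases BUB1, BUB1B and TTK by 2.86, 3.85 and 3.72 and the condensin subunit NCAPG by 4.62. The smallest called changes were those of PTTG1 (0.67), which holds separase inactive, the phosphatase CDC25B (0.69) and the kinase PLK1 (0.93). PTTG1 was 0.54 and not called without p53 replicate 1. PLK1 was at -0.74, 0.48 and 0.49 in p53 siRNA cells, against -0.85, -0.74 and -0.97 in GL2 siRNA cells, and INCENP, of the chromosomal passenger complex, was not called.

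Genes of homologous recombination and the Fanconi pathway, which repair breaks and crosslinks during replication, were called higher in 20 of 25 cases and lower in 0, with and without p53 replicate 1, with a median of 2.43. BRCA1 was at 4.15, 3.11 and 3.28 in p53 siRNA cells, against -0.29, -0.31 and -0.69 in GL2 siRNA cells. RAD51AP1, a partner of the recombinase, changed by 4.79 ± 0.22, the helicase BRIP1 by 4.04, FANCI by 3.85 and the checkpoint kinase CHEK1 by 1.56. The apical damage kinases ATM and ATR were not called, with changes of -0.22 and 0.37.

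Replication-type histone genes went the other way. Their mRNAs normally end in a stem loop rather than a poly(A) tail and are made in S phase. Of 10 measured, 7 were called lower and 0 higher, with a median of -2.09, and 8 called lower and 0 higher without p53 replicate 1. H2BC12 was at 2.81, 2.32 and 2.77 in p53 siRNA cells, against 4.97, 4.86 and 4.87 in GL2 siRNA cells, a change of -2.27 ± 0.12 with an adjusted p of 7.6e-15 in limma. H2BC5 was at 1.08, 0.93 and 1.24, against 3.96, 3.77 and 3.73. The linker histone H1-2 changed by -2.17 and H2AC6 by -1.96. H1-4, H2AC8 and H3C2 were not called and were dim. Histone genes of a cluster are near-identical, and whether the probes of 1 member take up signal of another was not tested. How well the arrays capture mRNAs without a poly(A) tail was not tested either. These values therefore need not follow the stem-loop mRNAs of S phase.

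**Figure D4:**
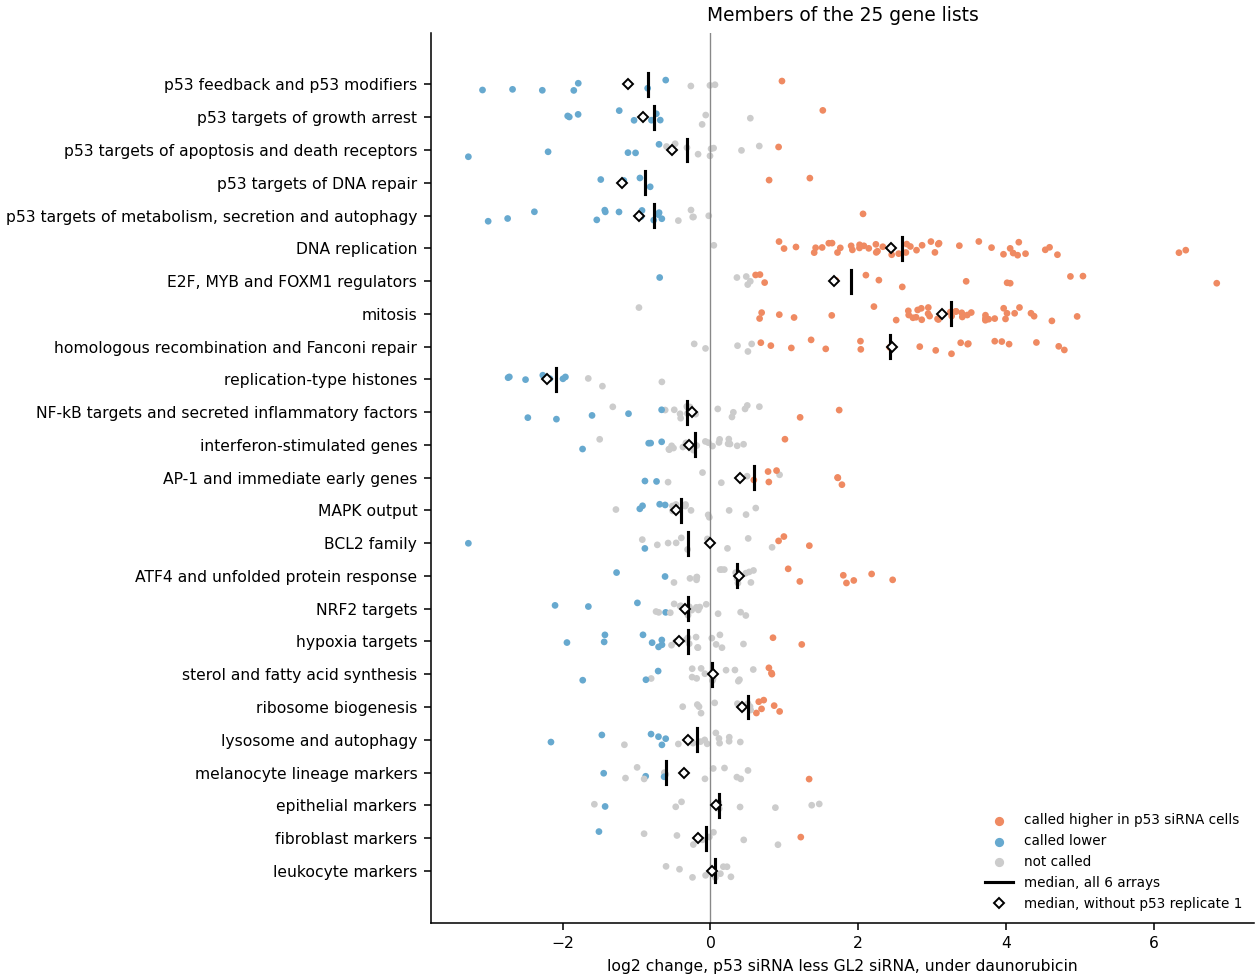
Change of each measured member of the 25 gene lists (horizontal, log2, p53 siRNA less GL2 siRNA under daunorubicin), coloured by call, with a bar for the median over all 6 arrays and an open diamond for the median without p53 replicate 1. Replication and mitosis genes lie to the right with medians of 2.60 and 3.26, histone genes to the left with a median of -2.09, and the p53 target lists have medians below 0.

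The genes with the largest increases that were called in both fits, had a mean signal of at least 100 in the higher group and had groups that did not overlap were E2F8, CDC45, GINS2, DTL, ZNF367, ESCO2, CCNE2, KIFC1, SKA1 and CDK1, from 6.85 to 4.96. All but DTL, CCNE2 and CDK1 had mean GL2 siRNA signals below 31.9, and their sizes and order rest on dim signals. With a pseudocount of 16, E2F8 changed by 4.55, ESCO2 by 3.45, KIFC1 by 3.38 and SKA1 by 3.49, all below DTL at 5.73. On its brightest probe set ESCO2 changed by 5.09, and by 2.54 with its 4 probe sets averaged. DTL, the substrate receptor that destroys CDT1 during replication, was at 5.93, 5.11 and 4.90 in p53 siRNA cells, against -1.01, -0.74 and -0.93 in GL2 siRNA cells. ESCO2 acetylates cohesin, KIFC1 is a mitotic kinesin and SKA1 links kinetochores to microtubules. The largest decreases by the same rule were PLEC, LTBP3, SUGCT, GASK1B, ALKBH7, H2BC9, BAX, EHBP1L1, AKT1S1 and MVP.

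Several of these decreases were smaller without p53 replicate 1, and PLEC, LTBP3, ALKBH7, BAX, EHBP1L1 and AKT1S1 were not called in the fit of the 6 arrays alone. PLEC, a cytoskeletal linker, was at -5.66, 0.03 and 0.99 in p53 siRNA cells, against 2.54, 2.67 and 2.07 in GL2 siRNA cells, with a change of -3.98 that was -1.92 without that array. LTBP3, which holds latent TGF-beta in the matrix, changed by -3.57 and by -1.29 without it, and ALKBH7 by -3.36 and -0.95. AKT1S1, a TORC1 regulator, changed by -3.16 and by -1.83 without it, and EHBP1L1 by -3.26 and -2.05. Of the 4 probe sets of ALKBH7, 2 had positive changes, and 1 of the 3 of LTBP3 was nearly unchanged (0.008). With all probe sets averaged ALKBH7 changed by -0.80 and was not called, and LTBP3 by -1.39. GASK1B, in contrast, was at 0.64, -0.57 and 0.19, against 3.78, 3.10 and 3.59 in GL2 siRNA cells, with a change of -3.40 that was -3.68 without replicate 1. SUGCT changed by -3.46 and -3.73, and the vault protein MVP by -3.14 and -2.74.

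Other programs had fewer calls, and their counts stand beside 12.1% of all genes called higher and 9.08% called lower. Several shares, such as those of sterol and fatty acid synthesis, are near that background and are no result about the list. In the fit of the 6 arrays alone each of these lists had 0 to 6 members called higher and 0 to 3 lower. Among targets of ATF4 and the unfolded protein response 7 of 24 were called higher and 2 lower, and 9 and 2 without p53 replicate 1. DDIT3, the stress factor CHOP, was at 3.71, 3.14 and 3.14 in p53 siRNA cells, against 1.13, 1.13 and 1.17 in GL2 siRNA cells. Amino acid genes of the same response were also higher, with ASNS at 1.94, PHGDH at 1.84 and PSAT1 at 1.05, whereas the chaperone HSPA5 was not called (-0.28). DDIT4, an inhibitor of TORC1 that is also a p53 target, was lower, at 3.22, 3.68 and 4.12 against 5.02, 4.99 and 4.82.

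Of 15 AP-1 and immediate early genes 7 were called higher and 2 lower, and 5 and 1 without p53 replicate 1. MYC was at 2.12, 2.16 and 1.70 in p53 siRNA cells, against 0.38, 0.21 and 0.21 in GL2 siRNA cells, and the early factor EGR1 at 3.46, 2.59 and 2.85, against 1.23, 1.34 and 0.98. ATF3, a stress-induced factor, changed by 0.89, with 1 of its 3 probe sets higher and 2 lower and a mean over them of -0.28, and IER3 changed by -0.89. Ribosome biogenesis genes had 6 of 17 called higher and 0 lower, and 5 and 0 without p53 replicate 1, with FBL, the methyltransferase of ribosomal RNA, at 0.65. At the deposited scaling 4 were called higher.

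NF-kB targets and secreted inflammatory factors had 2 of 23 called higher and 5 lower, and 3 and 5 without p53 replicate 1. The cytokine IL6 was at 1.71, 1.56 and 1.29 in p53 siRNA cells, against -0.34, -0.11 and -0.20 in GL2 siRNA cells, and TNFAIP3, an inhibitor of NF-kB signalling, changed by 1.21. MMP3, a matrix protease, was at -0.53, -0.75 and -0.75, against 1.53, 1.51 and 1.19, and NFKB2 changed by -1.60 on its brightest probe set. The chemokine CXCL8 was not called (-0.28). Interferon-stimulated genes had 1 of 24 higher and 4 lower, and 1 and 5 without p53 replicate 1.

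Hypoxia targets had 2 of 23 called higher and 8 lower, and 1 and 11 without p53 replicate 1. The glycolytic enzyme ALDOC was at 0.79, 1.83 and 1.95 in p53 siRNA cells, against 3.53, 3.53 and 3.35 in GL2 siRNA cells, and the collagen hydroxylase P4HA2 changed by -1.44 (-0.63 and not called with its 3 probe sets averaged), while VEGFA changed by 1.24. Lysosome and autophagy genes had 0 of 18 higher and 6 lower, and 0 and 5 without p53 replicate 1, among them GAA, a glycogen-degrading enzyme, at -2.16 and -1.44 without p53 replicate 1, and the autophagy receptor SQSTM1 at -0.80. NRF2 targets had 0 of 21 higher and 4 lower in both fits, with the aldo-keto reductase AKR1B10 at -1.65 and the detoxifying NQO1 not called (-0.30). MAPK output genes had 0 of 16 higher and 4 lower, and 0 and 6 without p53 replicate 1, with the phosphatase DUSP4 at -0.92. BCL2 family genes had 3 of 15 higher and 2 lower, and 2 and 3 without p53 replicate 1, among them BCL2L1, which is anti-apoptotic, at -0.89. BCL2, of the same kind, was at 1.34 from a dim signal, with 2 of its 4 probe sets higher and 2 lower, and at 0.42 and not called with them averaged. Sterol and fatty acid synthesis had 3 of 19 higher and 3 lower, and 1 and 2 without p53 replicate 1. Melanocyte markers had 1 of 15 higher and 3 lower, and 1 and 2 without p53 replicate 1, with S100B at -1.45 and RAB27A at 1.34.

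The p53 siRNA change under daunorubicin was then set against that under DMSO in a test of the difference. The difference was called positive for 1921 genes (9.71%) and negative for 1145 (5.79%), and for 1408 and 1302 without p53 replicate 1. Cell cycle genes differed most, with positive calls for 45 of 46 replication genes, 39 of 42 mitosis genes and 20 of 25 recombination genes and no negative call among them. Without p53 replicate 1 the positive calls numbered 44, 39 and 20, again with no negative call. Under DMSO alone 0 of 46 replication genes and 1 of 42 mitosis genes, KIF20A, were called higher. Over all 19775 genes, 117 were called higher and 232 lower under DMSO alone. CDK1 averaged 4.66 ± 0.06 in p53 siRNA cells and 4.41 ± 0.31 in GL2 siRNA cells with DMSO (SD, n = 3 each), and 4.46 ± 0.48 and -0.51 ± 0.51 with daunorubicin. The GL2 siRNA cells with daunorubicin had the low level. CDC45, with a difference of 6.77, had 0.92 ± 0.35 and 1.25 ± 0.22 with DMSO and 1.29 ± 0.07 and -5.14 ± 0.13 with daunorubicin in p53 and GL2 siRNA cells.

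Histone genes were negative in 7 of 10 cases and positive in 0, with and without p53 replicate 1. H2BC12 averaged 4.47 ± 0.09 in p53 siRNA cells and 4.57 ± 0.02 in GL2 siRNA cells with DMSO, and 2.63 ± 0.28 and 4.90 ± 0.06 with daunorubicin (SD, n = 3 each). For H2BC12 the p53 siRNA cells with daunorubicin had the low level, but this did not hold for every member. H4C8 averaged -1.31 in p53 siRNA cells and -1.19 in GL2 siRNA cells with DMSO, and -1.29 and 0.71 with daunorubicin. In the same order H2BC5 was at 1.64, 1.53, 1.08 and 3.82, and H1-2 at 1.63, 0.83, 0.56 and 2.74. For H4C8, H2BC5 and H1-2 the GL2 siRNA cells with daunorubicin had the high level. Of the 63 p53 targets 22 were negative and 5 positive, and 28 and 4 without p53 replicate 1. Under DMSO alone 7 of these targets were called lower and 1 higher, beside 232 and 117 of all 19775 genes. The apoptosis list had a median change of -0.36 under DMSO, beside -0.32 under daunorubicin. CDKN1A changed by -1.91 with daunorubicin and by -1.87 with DMSO, and the difference of -0.05 ± 0.24 was not called (adjusted p of 0.94 in limma). It averaged 1.20 ± 0.31 and 3.06 ± 0.12 in p53 and GL2 siRNA cells with DMSO, and both means were higher with daunorubicin. MDM2 differed by -1.39 ± 0.22, and TP53I3 and TP53INP1 by -2.19 and -2.15, while MYC, at -0.96 under DMSO, differed by 2.68.

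Nutlin raises p53 without breaking DNA, which makes it the comparison closest in design. The difference was called positive for 765 genes (3.87%) and negative for 311 (1.57%). Without p53 replicate 1 these were 495 and 482, and without p53 replicate 3 they were 1321 and 680, so that the split depends on single arrays. Of the called genes 71.1% were positive, and 59.7% at the deposited scaling. The p53 targets had 26 positive and 1 negative of 63, and 25 and 1 without p53 replicate 1, and the p53 siRNA change of a gene with a positive call was less negative, or positive, under daunorubicin. Under Nutlin itself 52 of the 63 were called lower and 2 higher, beside 1565 and 1622 of all 19775 genes. Their median change was -1.40, beside -0.71 under daunorubicin.

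CDKN1A differed by 1.36 ± 0.24, with an adjusted p of 0.00046 in limma. With Nutlin it averaged 3.07 ± 0.33 in p53 siRNA cells and 6.34 ± 0.08 in GL2 siRNA cells, beside 3.93 ± 0.09 and 5.84 ± 0.14 with daunorubicin (SD, n = 3 each). MDM2 differed by 1.03. GDF15 differed by 3.06, with -0.39 ± 0.45 and 5.05 ± 0.12 under Nutlin and 2.40 ± 0.66 and 4.78 ± 0.23 under daunorubicin in p53 and GL2 siRNA cells. The GL2 siRNA levels were close, and the p53 siRNA level was higher with daunorubicin. FAS differed by 1.99 and CCNG2 was the negative member, with -1.20.

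Some p53 targets had p53 siRNA changes of opposite sign under the drugs. KITLG was called higher with 2.07 under daunorubicin and lower with -1.37 under Nutlin, a difference of 3.44 ± 0.27. E2F7 changed by 1.52 and -0.78, a difference of 2.30, and PMAIP1 by 0.92 and -0.83, a difference of 1.75. With Nutlin the SD of PMAIP1 was 0.97 over the p53 siRNA arrays and 0.05 over the GL2 siRNA arrays. GADD45A changed by 0.54, which was not called, under daunorubicin and by -1.89 under Nutlin, a difference of 2.43.

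Other genes with a large positive difference included secreted factors. IL24, a cytokine of the IL10 family, averaged 4.89 ± 0.44 in p53 siRNA cells and 4.53 ± 0.16 in GL2 siRNA cells with daunorubicin, where it was not called, and -0.08 ± 0.23 and 3.52 ± 0.07 with Nutlin (SD, n = 3 each). The neuropeptide precursor TAC1 differed by 3.94, RGS16, a regulator of G protein signalling, by 3.20, IL6 by 3.0 and ATF3 by 2.52. SUGCT differed by 2.86 and DDIT3 by 2.72.

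Mitosis genes were negative in 24 of 42 cases and positive in 0, and 26 and 0 without p53 replicate 1. Their median p53 siRNA change was 3.26 under daunorubicin and 4.50 under Nutlin. PLK1 differed by -2.59, with 0.08 ± 0.71 and -0.86 ± 0.11 in p53 and GL2 siRNA cells with daunorubicin and 2.49 ± 0.19 and -1.03 ± 0.21 with Nutlin (SD, n = 3 each). BIRC5, the survivin gene, differed by -2.60, with 2.74 ± 0.10 and -1.64 ± 0.74 under daunorubicin and 3.54 ± 0.13 and -3.44 ± 0.64 under Nutlin. For PLK1 it was the p53 siRNA level that was lower under daunorubicin, and for BIRC5 both levels were closer together. ASPM, a spindle pole protein, differed by -2.73 and HMMR by -2.49. Replication genes, in contrast, had 3 positive and 2 negative of 46, with RRM2 and GINS2 negative at -1.46 and -1.47 and LIG1 positive at 1.24, and without p53 replicate 1 they had 1 positive and 5 negative. Histone genes were negative in 6 of 10 cases, and in 5 without p53 replicate 1, with H2BC12 at -1.92 and H1-2 at -2.29.

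**Figure D5:**
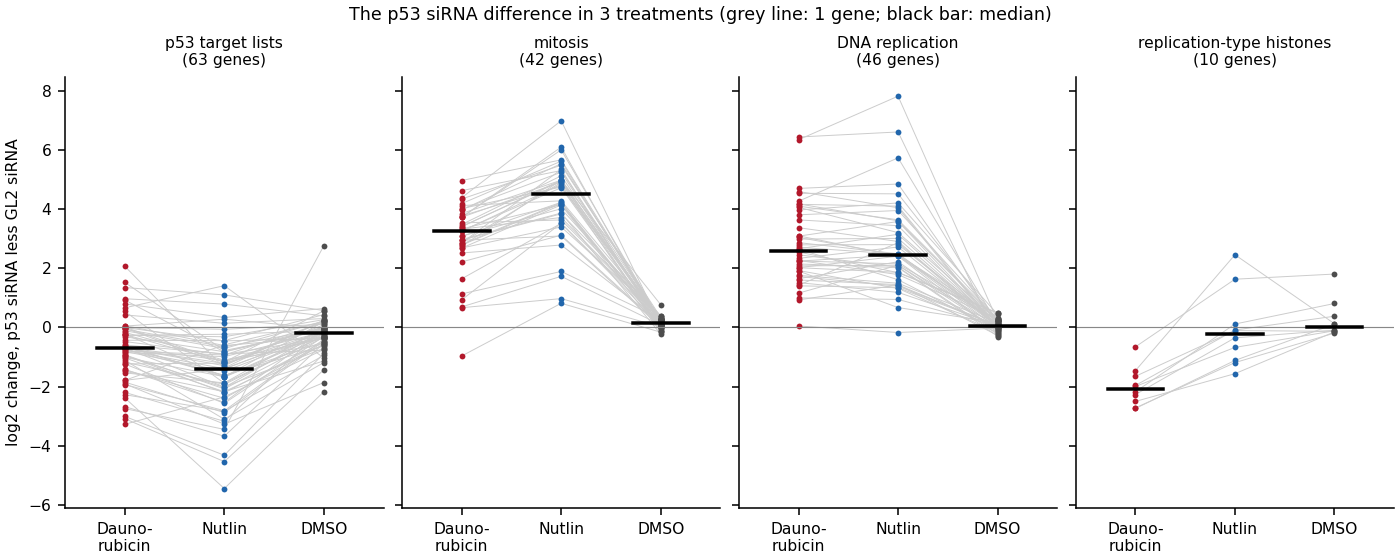
Change of each gene between p53 siRNA and GL2 siRNA cells (vertical, log2) under daunorubicin, Nutlin and DMSO, for the p53 target lists, mitosis, DNA replication and replication-type histone genes, with a line for each gene and a bar for the median. Under DMSO the medians of the mitosis, DNA replication and histone genes are 0.16, 0.05 and 0.01 and that of the p53 targets is -0.18, mitosis genes have medians of 3.26 under daunorubicin and 4.50 under Nutlin, and the histone genes lie low under daunorubicin.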

How the data were processed

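RNA of A375 cells was measured on 42 Affymetrix arrays in 14 groups of 3. The deposited table holds 1 signal intensity on the linear scale for each of 54675 probe sets and array, which the authors computed with Affymetrix Expression Console (version not given), per the submitters' processing notes. The mean after trimming 2% at each end was 150 on every array. Intensities of 0 (147 values) were raised to 0.1 before log2. Of the probe sets, 41091 carried 1 gene symbol in the platform annotation, 1801 several and 11721 none, and 62 were controls. For each of 19775 genes the probe set of highest mean signal was used. Array medians ran from 5.63 to 6.35 on the log2 scale, so arrays were centred on their median genes; without centring the median change was -0.10.

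limma 3.58.1 in R 4.3.3 (lmFit, contrasts.fit, eBayes) fitted all 14 groups at once, with 28 residual degrees of freedom, and p-values were adjusted over all genes. The number of arrays limits the precision. On simulated data for the daunorubicin comparison it recovered 19.4%, 61.2% and 72.7% of 67, 67 and 66 genes changed 1.5-, 2- and 4-fold and called 6 of 19575 unchanged genes. The simulation gave each gene the same spread in all groups and held no array of low RNA quality. Its false calls are therefore not the error rate of the calls above. Python 3.11.15 with pandas 2.3.3, numpy 2.4.6 and scipy 1.17.1 made the tables.

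The groups, the 25 lists (500 genes, 459 measured) and the naming rule were chosen with earlier results of these data known. The naming rule takes CDKN1A and MDM2, the 10 largest changes each way, up to 4 members of a list and the 5 largest differences each way for each test of a difference. Other list members were named after their values were seen. Same-numbered p53 and GL2 siRNA arrays did not deviate together. Alternatives were other scalings, probe set rules, thresholds, DMSO sets, array weights, the 6 arrays alone and leaving out each array. Scan dates and detection calls were not used here. The level of the transcript that the siRNA targets is not reported here.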

Additional observations from a re-analysis of the deposited data

Results flagged for a closer look

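The tests of a difference singled out 23 values among CDKN1A, MDM2 and the genes with the largest differences; other genes that passed the same tests stand as counts above. Between daunorubicin and DMSO the p53 siRNA change differed by 6.77 for CDC45, 6.47 for E2F8, 6.12 for GINS2, 6.08 for DTL and 5.73 for the phosphatase gene CDC25A. In the other direction it differed by -4.13 for PLEC, -3.87 for GASK1B, -3.70 for ALKBH7, -3.50 for the histone gene H2BC9, -3.27 for MVP and -1.39 for MDM2. PLEC and ALKBH7 rest in large part on p53 siRNA replicate 1, and without it they differed by -2.08 and -1.29. For CDC25A the p53 siRNA change under daunorubicin was 4.87 on its brightest probe set and 2.79 with its 3 probe sets averaged.

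Between daunorubicin and Nutlin the change differed by 3.97 for IL24, 3.94 for TAC1, 3.44 for KITLG, 3.20 for RGS16, 3.06 for GDF15, 1.36 for CDKN1A and 1.03 for MDM2. It differed by -2.86 for H2BC9, -2.73 for ASPM, -2.60 for BIRC5, -2.59 for PLK1 and -2.56 for NMU, which encodes a neuropeptide. Groups of 3 arrays were not tested for outlying samples.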

How the results depend on the processing

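The count of genes called between p53 and GL2 siRNA under daunorubicin (4192) was 1047 in a fit of the 6 arrays alone, 457 with the replicate block added to it and 2013 at 2-fold. It was 4174 with the replicate block in the full fit, in which numbers do not pair samples (correlations of 0.02, 0.0301 and -0.123), and 3399 to 4785 when 1 array was left out. The difference to DMSO (3066 genes) gave 1946 at an adjusted p under 0.01 and 1704 at 2-fold, and 62.7% positive calls became 52.2% under quantile normalization and 46.8% with array weights. With the second DMSO sets in place of the first it gave 3560 calls, 63.3% of them positive. With both DMSO sets pooled it gave 3749, 61.3% of them positive. The difference to Nutlin (1076) gave 545 at an adjusted p under 0.01, 557 at 2-fold and 1669 with array weights, whose estimation stopped early, and 811 to 2001 when 1 array was left out, with 2001 without p53 siRNA daunorubicin replicate 3. Its 71.1% positive calls became 57.9% under quantile normalization and 42.0% with array weights. With all probe sets of a gene averaged, the called genes NFKB2, ATF3 and CCNE1 turned to 0.019, -0.276 and -0.239. Other turns of sign were in genes that were not called. With that averaging they were ME1 (0.033), DCN (0.325), CD79A (0.014), PTPRC (-0.033), CDK2 (-0.201), RB1 (-0.126) and TNFRSF10B (-0.823). With array weights they were CD79A (0.252), CD3D (0.136), ATR (-0.082), PCNA (-0.111) and TNFRSF10B (-0.292). TNFRSF10B was also -0.143 with quantile normalization, -0.005 with a pseudocount of 16 and -0.066 at the deposited scaling, where PCNA was -0.029. With 1 array left out, ATR ran from -0.063 to 0.585, INCENP from -1.558 to 0.029, PCNA from -0.157 to 0.19 and TNFRSF10B from -0.259 to 0.152. Leaving out the MLN4924 arrays labelled BRCA1 siRNA replicate 3 and GL2 siRNA replicate 3, which went against their labels, together with p53 replicate 1 gave 1227 calls for the difference to Nutlin, against 977 without p53 replicate 1 alone, and the same values for these 4 genes to 3 decimals. In a pair of settings chosen after seeing the data, p53 replicate 1 was left out together with the centring, or with the replicate block added. The first gave ATR -0.009, INCENP 0.084, PCNA -0.102, TNFRSF10B -0.205 and CD79A 0.004, and the second ATR -0.062, INCENP 0.059, PCNA -0.153, TNFRSF10B -0.249 and PTPRC -0.109. The 6-array fit has fewer samples and also lacks the spread of the other groups. The cause of its fewer calls and of the other shifts was not tested. Of 191 genes followed, 176 kept their direction and call without p53 replicate 1, 8 lost the call, 3 gained it and 4 turned in sign. Dim signals limit the size of the largest increases.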
